A study of Mus musculus with 18 samples.

Results

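Pou5f1, Nanog and Sox2 were followed through the lineages of the gastrulating mouse embryo. These 3 genes, chosen by name, are 3 of the 22997 nuclear genes in the count tables. The embryos were wild type mice of the C57BL/6 strain at embryonic day (E) 6.75 and E7.5. At E6.75 the extraembryonic part was cut away, each embryo was dissociated alone, and cells were picked by hand into 6 libraries by CEL-Seq2, a method that counts the 3′ end of each polyadenylated molecule once by its molecular identifier. At E7.5 embryos were cut below the chorion, which keeps extraembryonic mesoderm, those of 1 or 2 litters were pooled, and cells were flow sorted into 12 libraries by mCEL-Seq2, the miniaturized form. Stage, collection and protocol change together, so a difference between stages cannot be told apart from a difference in method. The labels do not say which embryo a cell came from, and libraries can share embryos, so p-values measure the spread between libraries. The series' text states 576 cells at E6.75 and 1172 at E7.5. The used barcodes number 576 and 1152, and 543 and 429 of them held at least 2000 nuclear transcripts and were kept.

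Pou5f1 encodes Oct4, a POU domain factor that holds cells of the epiblast in a pluripotent state and marks the germ line later. Sox2 encodes an HMG box factor that pairs with Oct4 on joined DNA sites in pluripotent cells, and is later a factor of neural ectoderm and of extraembryonic ectoderm. Nanog encodes a homeodomain factor of the pluripotent epiblast, known to be expressed again in the posterior epiblast near the primitive streak at gastrulation.

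The proximal promoters of Nanog and Sox2 are shown because these genes moved apart between lineages, and because joined octamer and Sox sites are where Oct4 and Sox2 are known to bind. The windows run from 250 bases before to 50 bases after the RefSeq start site (GRCm38.p6), which for Sox2 lies upstream of the GENCODE gene given below. Capitals mark matches on either strand to the octamer core ATGCAAA and to the Sox site ACAANG.
Nanog, chr6:122707239-122707538, plus strand: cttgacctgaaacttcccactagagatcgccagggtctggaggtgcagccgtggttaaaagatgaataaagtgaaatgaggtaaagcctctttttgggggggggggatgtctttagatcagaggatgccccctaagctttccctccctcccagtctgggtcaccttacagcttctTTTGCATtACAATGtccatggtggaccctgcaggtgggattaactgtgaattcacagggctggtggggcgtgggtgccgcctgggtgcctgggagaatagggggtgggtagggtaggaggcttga
Sox2, chr3:34649745-34650044, plus strand: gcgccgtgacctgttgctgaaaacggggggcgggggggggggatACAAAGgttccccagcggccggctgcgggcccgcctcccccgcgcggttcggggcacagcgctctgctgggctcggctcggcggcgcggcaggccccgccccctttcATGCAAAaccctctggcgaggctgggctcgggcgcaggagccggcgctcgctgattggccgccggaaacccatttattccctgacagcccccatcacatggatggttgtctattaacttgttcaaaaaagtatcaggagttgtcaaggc

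In the Nanog window the octamer core lies on the minus strand and runs 1 base before a Sox site, and together they spell TTTGCATTACAATG from -75 to -62 of the start. That joined element, written TTTGCATNACAANG and searched on both strands, is in 3 of 32851 promoter windows (0.00913%). The Sox2 window holds the octamer core from -99 to -93 and a Sox site from -206 to -201, which are not joined. The Pou5f1 window (chr17:35505782-35506081) holds neither string of letters. The octamer core alone is in 4.63% and the Sox site alone in 41.2% of all windows, each overlapping the joined element where that occurs. These matches describe letters in the windows, and binding was not measured.

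In GENCODE M21 (GRCm38) Pou5f1 is at chr17:35506018-35510772, Nanog at chr6:122707489-122714633 and Sox2 at chr3:34650405-34652461, all protein coding on the plus strand. Sox2 lies inside the noncoding gene Sox2ot on the same strand, and the row of Sox2ot held 51 transcripts in kept cells, so reads shared by the overlap are uncertain. The antisense gene Gm19553 overlaps Pou5f1 and had 0 transcripts. Nanog has the pseudogenes Nanog-ps1 and Nanog-ps2, whose reads the counting could have mixed with Nanog.

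Cells were put into classes by at least 1 transcript of 3 lineage genes. T (Brachyury) marks the primitive streak, Mesp1 the first mesoderm and Foxa2 the anterior streak, endoderm and node. The base class had none of the 3, the T class had T alone, the Mesp1 class had Mesp1 without Foxa2, and the Foxa2 class had Foxa2 without Mesp1. At E6.75 they held 291, 71, 29 and 92 cells, and at E7.5 115, 122, 125 and 49. Cells with both Mesp1 and Foxa2 (21 and 12) were only described. Cells with visceral endoderm markers (26 at E6.75) or extraembryonic ectoderm markers (13 and 6) were left out of the classes. Library totals were 2933395 to 5493791 nuclear transcripts (E6.75) and 3042 to 2627269 (E7.5), and E7.5 replicate 5 gave 0 kept cells. The same barcode numbers recur in all libraries by design, so that the 429 kept cells of E7.5 used 180 of them. A detection gate favours deep cells, and the median depth was 34485 transcripts in base cells and 61036 in Mesp1 cells of E6.75, beside 21007 and 39912 at the later stage.

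The classes matched their markers in part. All 7 early mesoderm genes with enough counts to be tested (of 8 listed) were higher in Mesp1 cells than in base cells at E6.75, and 6 of 7 at E7.5, in comparisons that called 3.2% and 6.37% of all genes tested. A gene near 0 elsewhere could pass the count filter mainly through Mesp1 sums, which sets its direction beforehand. Mesp2, at 0.09 CPM in base and 35.3 CPM in Mesp1 cells of E6.75, is such a gene. These counts therefore describe the Mesp1 class and do not test it. At E7.5 the base class was mixed: early mesoderm genes summed to 78.9 to 624 CPM (transcripts of a gene per 1000000 of all nuclear transcripts) over its 10 libraries, with 7 of 8 markers present and Msgn1 at 0, against 8.64 to 28.4 CPM over the 6 libraries of E6.75. The Foxa2 class at E6.75 summed to 0 to 389 CPM of visceral endoderm markers (median 173, all 8 present), against 6.63 to 76.1 CPM in the base class, where all 8 were present too. At E7.5 that class summed to 283 to 1112 CPM of definitive endoderm markers (median 410) and 0 to 849 CPM of node and notochord markers (median 261). Definitive endoderm markers overlapped this range in the other classes, with 32.0 to 322 CPM in base, 19.0 to 887 in T and 6.25 to 289 in Mesp1 cells (medians 75.2, 60.7 and 80.7). Node and notochord markers reached 16.8, 57.8 and 8.15 CPM in these classes (medians 5.29, 10.8 and 3.32).

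The levels of the 3 genes were summed over the cells of a class in a library and given as CPM. Pou5f1 was on in every class at both stages. At E6.75 its mean was 437 ± 114 CPM (SD, n = 6 libraries) in base cells, 427 ± 28.3 (n = 3) in Mesp1 cells, 414 ± 125 (n = 6) in T cells and 409 ± 106 (n = 6) in Foxa2 cells. The place of the Mesp1 class in this order rests on which libraries hold it: in replicates 2_13, 2_14 and 2_9, the 3 with all 4 classes, the means were 528 CPM in base, 508 in T, 497 in Foxa2 and 427 in Mesp1 cells. At E7.5 its mean was 371 ± 129 CPM (n = 10) in T cells, 345 ± 141 (n = 10) in base cells, 257 ± 46.2 (n = 11) in Mesp1 cells and 239 ± 64.0 (n = 8) in Foxa2 cells. In the 7 libraries of E7.5 with all 4 classes base cells (324 CPM) stood above T cells (305 CPM). Over all libraries the E6.75 means differed by less than their spread, and every pair of neighbours in the order over both stages overlapped.

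Nanog had another order, with the T class first at each stage. It stood at 219 ± 51.1 CPM in E6.75 T cells, 145 ± 64.6 in Mesp1, 139 ± 43.4 in Foxa2 and 82.9 ± 24.7 in base cells. In the 3 libraries with all 4 classes the Foxa2 mean was 159 CPM, above that of Mesp1 cells, so these 2 classes have no settled order. At E7.5 the means were 96.6 ± 57.8 CPM in T, 59.5 ± 27.1 in Foxa2, 40.0 ± 36.8 in base and 34.2 ± 28.0 in Mesp1 cells, with the same numbers of libraries as for Pou5f1. Over both stages E7.5 T cells fell between the Foxa2 and base classes of E6.75, and all neighbours overlapped.

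Sox2 had its lowest mean in Mesp1 cells at each stage, also in the libraries with all 4 classes. Its means were 118 ± 33.7 CPM in base, 109 ± 20.5 in Foxa2, 101 ± 58.3 in T and 57.0 ± 6.84 in Mesp1 cells at E6.75, where the 3 libraries with all 4 classes gave 103 CPM in base and 104 in Foxa2 cells. At E7.5 they were 175 ± 109 CPM in base, 111 ± 113 in Foxa2, 91.1 ± 83.2 in T and 26.9 ± 21.3 in Mesp1 cells. Neighbours in the order over both stages overlapped here too.

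**Figure D1:**
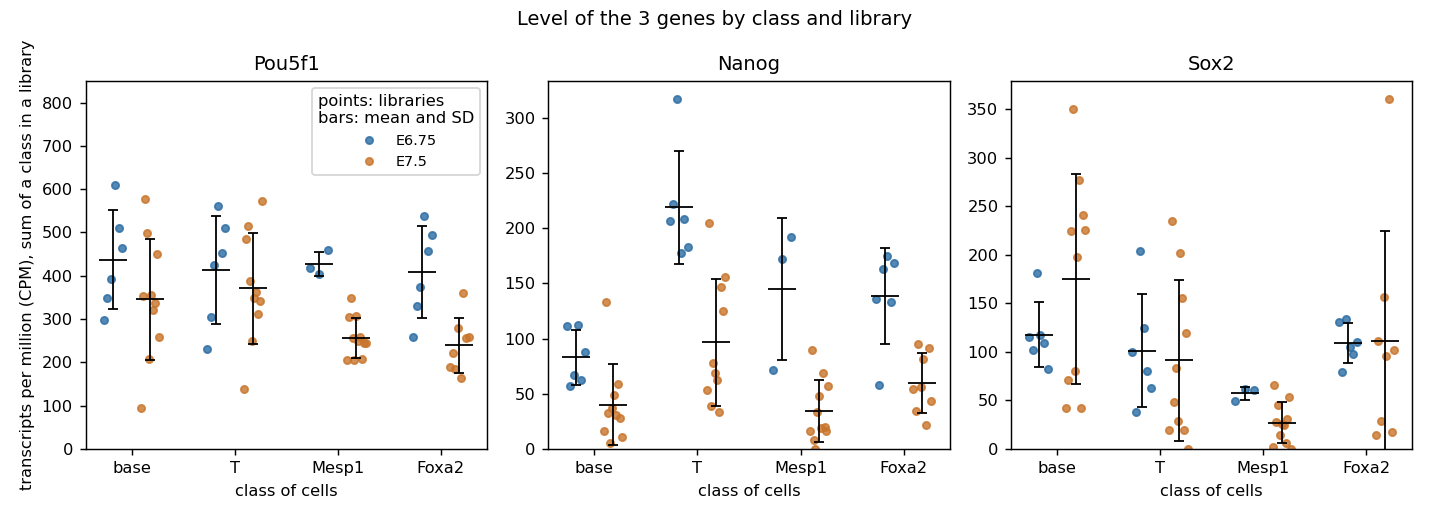
CPM of Pou5f1, Nanog and Sox2 (vertical axes, linear, 1 panel a gene) in the base, T, Mesp1 and Foxa2 classes (horizontal axis). Each point is the sum over a class in 1 library of E6.75 (blue) or E7.5 (orange), and black bars give the mean and SD. Nanog in E6.75 T cells lies between 178 and 318 CPM, above all E6.75 base libraries, and Sox2 is at or below 66.2 CPM in all E7.5 Mesp1 libraries.

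Cells with T as their only lineage gene had more Nanog. In the 6 E6.75 libraries Nanog in base cells was 111 (replicate 1_10), 57.0 (1_11), 66.9 (2_12), 112 (2_13), 62.1 (2_14) and 88.2 CPM (2_9). In T cells of the same libraries it was 207, 222, 318, 178, 208 and 183 CPM. The ranges did not overlap, and Nanog was higher in T cells in 6 of 6 libraries. The difference was 1.35 on the log2 scale (SE 0.16, limma adjusted p = 3.26e-07), in a comparison that called 0.664% of 8429 genes. It passed in 26 of 27 alternatives, with limma adjusted p from 1.87e-08 to 0.293. The fit with no filter on low counts is among the 26, but it called 6420 genes, against 56 in the main fit, so passing there says little. The exception was the fit without precision weights, where the value was 1.37. Of the alternatives 17 left out 1 library of either stage, and leaving out an E7.5 library removed no cell of this comparison.

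At E7.5 Nanog in T cells was higher than in base cells in 9 of 9 libraries that held both classes, but the difference did not pass (0.94, SE 0.30, limma adjusted p = 0.242, 0.308% of genes called). Base cells ran from 5.30 to 134 CPM (median 31.1) and T cells from 33.4 to 205 CPM (median 73.0), so the ranges overlapped. The difference between stages was -0.41 (95% interval -1.10 to 0.28), in a comparison where limma called 0 genes (0.0%; 417 had an unadjusted p under 0.05).

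Pou5f1 and Sox2 gave no call between T and base cells. Pou5f1 differed by -0.15 (SE 0.09, limma adjusted p = 0.726) at E6.75 and by -0.02 (SE 0.11, adjusted p = 0.990) at E7.5, with 95% intervals of -0.33 to 0.02 and -0.25 to 0.21. With cells thinned to 2000 transcripts the E6.75 value was -1.22 (limma adjusted p = 0.0252), in sums that hold few transcripts. That fit set the classes anew from the thinned counts, so its classes held other cells. In the classes as above, thinned and pooled, Pou5f1 went the other way, at 486 CPM in 71 T cells and 405 CPM in 291 base cells. Its levels differed more by library than by class: replicate 1_10 was lowest in base, T and Foxa2 cells (298, 231 and 258 CPM) and replicate 2_13 highest (610, 562 and 539 CPM). Sox2 differed by -0.40 (SE 0.23, limma adjusted p = 0.740) at E6.75 and -0.67 (SE 0.25, adjusted p = 0.453) at E7.5, lower in 4 of 6 and 7 of 9 libraries.

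The share of Nanog in Nanog plus Sox2 compares both genes within the same cells and needs no scaling to depth. Nanog made up 41.5% of Nanog plus Sox2 transcripts in base cells and 69.9% in T cells at E6.75 (means of 6 libraries). Base libraries ran from 27.0% to 51.9% and T libraries from 58.9% to 85.3%, without overlap. The difference was 28.4 percentage points ± 14.1 (SD, n = 6), higher in 6 of 6 libraries, with an exact two-sided sign-flip permutation p of 0.0312, the smallest that 6 libraries allow (adjusted over 2 stages, 0.0312). Leaving out any library put the adjusted p at 0.0625, again the smallest possible.

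At E7.5 the share was 26.3% in base and 51.5% in T cells of 9 libraries. It was higher in T cells in 8 of 9, all but replicate 10 (65.4% in base, 46.6% in T). The difference was 25.2 points ± 22.6 (SD, n = 9; exact permutation p = 0.0195, adjusted 0.0312). Sums were small here: replicate 11 had 4 Nanog and 5 Sox2 transcripts in its T cells, and replicate 12 had 1 Nanog transcript in its base cells. Mesp1 and Foxa2 cells had shares of 69.6% ± 9.11 (n = 3) and 54.8% ± 7.44 (n = 6) at E6.75, and 54.8% ± 32.1 (n = 11) and 46.4% ± 30.03 (n = 8) at E7.5.

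**Figure D2:**
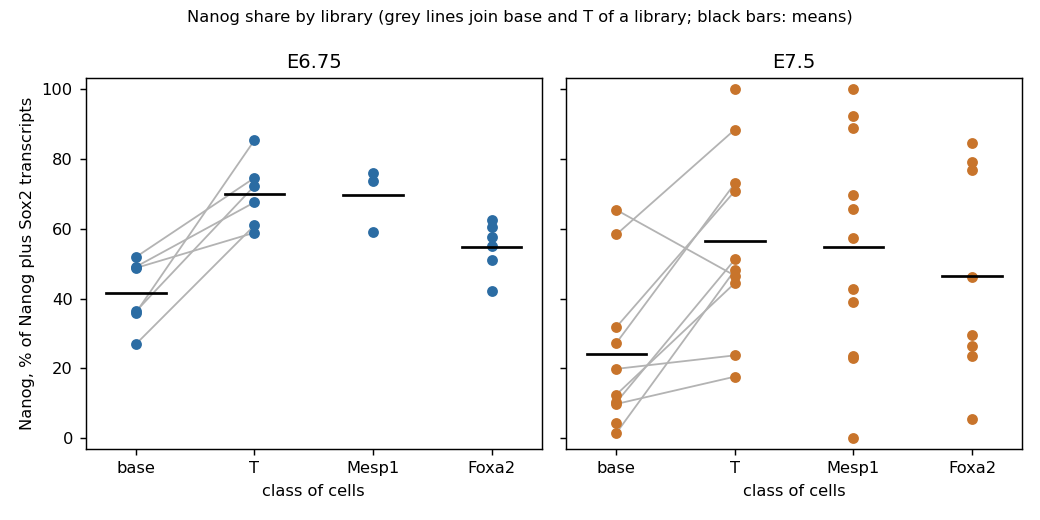
Nanog as a percentage of Nanog plus Sox2 transcripts (vertical axis) by class (horizontal axis) at E6.75 (left) and E7.5 (right). Points are libraries, black bars means over all libraries with that class, and grey lines join the base and T classes of a library. All 6 lines rise at E6.75 and 8 of 9 at E7.5.

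Mesp1 cells had the least Sox2. At E7.5 the 10 base libraries ran from 42.1 to 350 CPM (median 211) and the 11 Mesp1 libraries from 0 to 66.2 CPM (median 25.3), and the lowest base libraries overlapped the highest Mesp1 libraries. Sox2 was lower in Mesp1 cells in 10 of 10 libraries that held both classes. It fell by 2.51 on the log2 scale (SE 0.35, limma adjusted p = 4.4e-07), in a comparison that called 6.37% of genes, and it passed in 27 of 27 alternatives with values from -4.18 to -2.42. Of these 17 left out 1 library of either stage, and leaving out an E6.75 library removed no cell of this comparison. In Mesp1 cells of replicate 9 no Sox2 transcript was counted, which allows up to 6.52 CPM.

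The base class of E7.5 held 2 ranges of Sox2. Replicates 1, 2, 6 and 10 had 42.3, 80.0, 42.1 and 70.7 CPM, and replicates 3, 4, 7, 8, 11 and 12 had 197, 278, 241, 226, 224 and 350 CPM. Early mesoderm genes summed in the same base cells to 624, 411, 227 and 605 CPM in the first 4 and to 333, 172, 118, 78.9, 135 and 90.2 CPM in the other 6. The part of mesoderm-marked cells in these levels was not tested.

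At E6.75 only 3 libraries held Mesp1 cells. Sox2 in replicates 2_13, 2_14 and 2_9 was 49.1, 61.2 and 60.8 CPM in Mesp1 cells and 118, 109 and 81.8 CPM in base cells, without overlap, and differed by -1.04 (SE 0.36, limma adjusted p = 0.108, 3.2% of genes called). The difference between stages was -1.47 (95% interval -2.47 to -0.47, limma adjusted p = 0.274) and did not pass, in a comparison that called 0.427% of genes.

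Pou5f1 differed little in Mesp1 cells. In replicates 2_13, 2_14 and 2_9 it was 419, 403 and 458 CPM in Mesp1 and 610, 510 and 464 CPM in base cells. It fell by 0.41 (SE 0.12, limma adjusted p = 0.0343, lower in 3 of 3), a call that was lost without replicate 1_10, 2_12, 2_13 or 2_14 (adjusted p 0.0528, 0.0522, 0.453 and 0.207). Replicates 1_10 and 2_12 hold no Mesp1 cells and enter this call only through the fit that all libraries share. Without the library block the value was -0.05 (limma adjusted p = 0.968). At E7.5 Pou5f1 was lower in Mesp1 cells in 9 of 10 libraries but did not pass (-0.34, SE 0.12, limma adjusted p = 0.0678). Without replicate 1, the library with the lowest Pou5f1 in base cells (95.1 CPM), the value was -0.46 (adjusted p = 0.00116).

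Nanog in Mesp1 cells gave no call against base cells at either stage. At E6.75 it was 71.3, 172 and 191.8 CPM in Mesp1 cells of replicates 2_13, 2_14 and 2_9, against 112, 62.1 and 88.2 CPM in base cells, and the difference was 0.54 (SE 0.25, limma adjusted p = 0.303). Replicate 2_13 went against the other two, and without it the value was 1.21 (adjusted p = 0.00399). At E7.5 the difference was -0.35 (SE 0.34, limma adjusted p = 0.676), lower in 8 of 10 libraries.

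Foxa2 cells had more Nanog at E6.75 and less Sox2 at E7.5 than base cells. At E6.75 Nanog was 136 (replicate 1_10), 57.5 (1_11), 163 (2_12), 175 (2_13), 133 (2_14) and 168 CPM (2_9) in Foxa2 cells. It was higher than in base cells in 6 of 6 libraries, and replicate 1_11 alone lay within the range of base cells. It rose by 0.85 (SE 0.17, limma adjusted p = 0.000966, 2.38% of genes called). Without the library block the value was 0.83 (adjusted p = 0.0730), and without precision weights 0.64 (adjusted p = 1). At E7.5 the difference was similar in size but did not pass (0.93, SE 0.37, limma adjusted p = 0.140, higher in 7 of 8). Between stages it changed by 0.08 (95% interval -0.73 to 0.89).

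Sox2 in Foxa2 cells at E7.5 was widely spread. It was 14.5, 28.4, 156, 95.2, 361, 16.8, 102 and 111 CPM in replicates 1, 2, 3, 4, 6, 7, 8 and 12, and replicate 6, with 3 cells, stood above all base libraries. It fell by 1.46 against base cells (SE 0.32, limma adjusted p = 0.00315, lower in 7 of 8; 4.82% of genes called). Without replicate 7 the value was -0.90 (adjusted p = 0.0941), and without precision weights -0.93 (adjusted p = 0.193). At E6.75 Sox2 differed by -0.17 (SE 0.20, limma adjusted p = 0.819). The difference between stages, -1.28 (95% interval -2.04 to -0.53), did not pass (adjusted p = 0.120, 0.392% of genes called).

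Pou5f1 in Foxa2 cells differed by -0.15 (SE 0.08, limma adjusted p = 0.449) at E6.75 and -0.44 (SE 0.15, adjusted p = 0.0651) at E7.5, lower in 5 of 6 and 5 of 8 libraries. Without replicate 1 the E7.5 value was -0.55 (adjusted p = 0.00757).

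Mesp1 and Foxa2 cells were then set against each other. At E7.5 Nanog fell by 1.27 in Mesp1 against Foxa2 cells (SE 0.36, limma adjusted p = 0.0157) and Sox2 by 1.06 (SE 0.35, adjusted p = 0.0393), each lower in 7 of 8 libraries, in a comparison that called 9.73% of genes. Both calls were narrow: without replicate 2 or 7 Nanog had an adjusted p of 0.0616 or 0.0542, and Sox2 lost its call without any of replicates 1, 2, 3, 4, 6, 8, 9 and 12 (adjusted p 0.0515 to 0.209). Pou5f1 differed by 0.10 (SE 0.14, limma adjusted p = 0.720). At E6.75 no call was made, with Nanog at -0.31, Pou5f1 at -0.26 and Sox2 at -0.87 (limma adjusted p of 0.734, 0.366 and 0.271, 1.2% of genes called). Between stages Nanog changed by -0.97 and Sox2 by -0.19, without a call (limma adjusted p of 0.400 and 0.940, 0.308% of genes called).

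**Figure D3:**
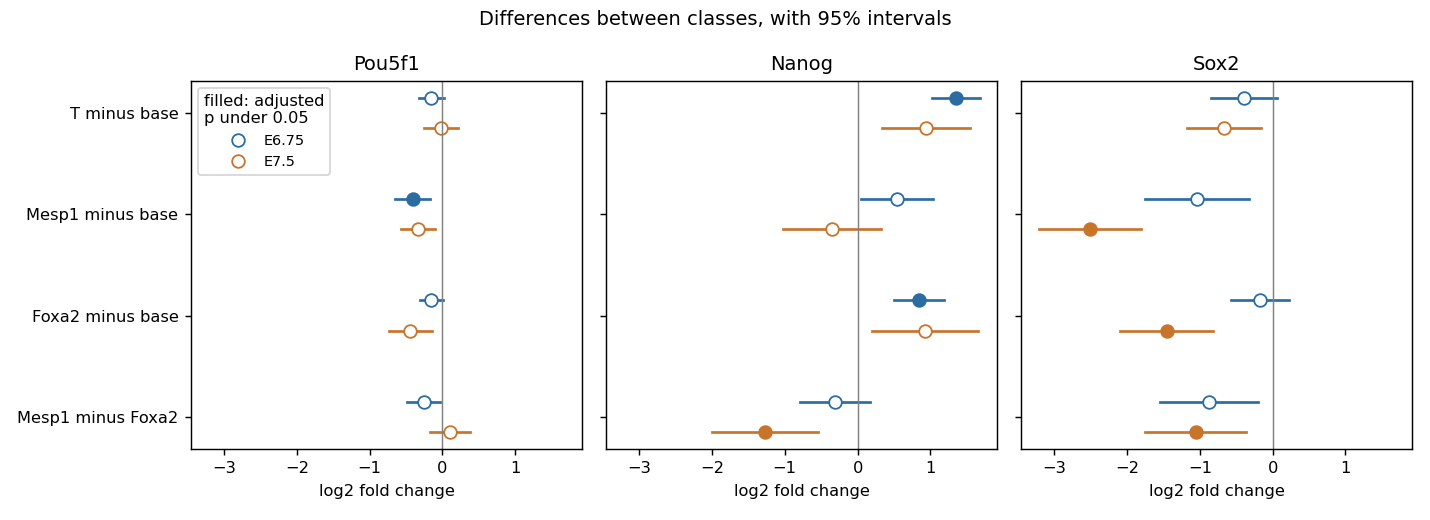
Log2 fold change (horizontal axis) of Pou5f1, Nanog and Sox2 in 4 class comparisons (vertical axis) at E6.75 (blue) and E7.5 (orange). Lines are 95% intervals and filled points have an adjusted p under 0.05. Nanog lies at 1.35 in T cells of E6.75 and Sox2 at -2.51 in Mesp1 cells of E7.5, while no value of Pou5f1 is farther from 0 than -0.44.

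Eomes, a T-box factor of the streak and of early mesoderm and endoderm, split the base class into 209 cells with and 82 without it at E6.75, and 32 with and 83 without at E7.5. Cells without Eomes were shallow, with median depths of 9781.5 against 43383 transcripts at E6.75 and 14598 against 33533.5 at E7.5. At E6.75 Nanog, Pou5f1 and Sox2 differed by 0.42, -0.09 and -0.01 (limma adjusted p of 0.991, 0.991 and 0.996; 0.0178% of 5615 genes called).

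At E7.5 Pou5f1 was higher in base cells with Eomes in 4 of 4 libraries that held both sets. It was 135, 503, 463 and 431 CPM with Eomes in replicates 1, 10, 3 and 4, and 53.9, 121, 308 and 264 CPM without. The ranges overlapped through replicate 1, and Pou5f1 rose by 0.79 (SE 0.19, limma adjusted p = 0.0303; 0.819% of genes called). The call was lost without any of these 4 libraries (limma adjusted p 0.0712 to 0.198). With cells thinned to 2000 transcripts the value was -0.42 (limma adjusted p = 0.671). That fit set the base class and its Eomes sets anew from the thinned counts. In the sets as above, thinned and pooled, Pou5f1 was 453 CPM in 32 cells with Eomes and 313 CPM in 83 without. Hand1, a gene of lateral and extraembryonic mesoderm, differed by -3.46 (SE 0.49, limma adjusted p = 5.74e-05) in the same comparison, and its part in the Pou5f1 difference was not tested. Nanog (1.08, adjusted p = 0.611) and Sox2 (0.51, adjusted p = 0.754) gave no call, and the change of the Pou5f1 difference between stages was 0.89 (95% interval 0.44 to 1.34, limma adjusted p = 0.130, 0.16% of genes called).

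Nanog and Pou5f1 fell from E6.75 to E7.5, and Sox2 gave no call. Over all kept cells Nanog ran from 82.8 to 132 CPM (median 124) in 6 E6.75 libraries and from 22.5 to 113 CPM (median 53.5) in 11 E7.5 libraries. The ranges overlapped through replicate 10 of E7.5 and Nanog fell by 1.41 (SE 0.21, limma adjusted p = 1.94e-05). Pou5f1, from 277 to 512 CPM (median 404) and from 179 to 410 CPM (median 304), fell by 0.61 (SE 0.14, adjusted p = 0.00177). Sox2 ran from 86.0 to 187 CPM (median 101) and from 0 to 201 CPM (median 87.8), and differed by -1.16 (SE 0.53, limma adjusted p = 0.0840). The comparison called 42.9% of 9998 genes, so these calls stand among many.

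In base cells alone Nanog fell by 1.42 between stages (SE 0.31, limma adjusted p = 0.00144), from a median of 77.6 to 31.1 CPM, Pou5f1 differed by -0.57 (SE 0.22, adjusted p = 0.0546) and Sox2 by 0.35 (SE 0.31, adjusted p = 0.410). This comparison called 31.4% of 6311 genes and its median over all genes was -0.14. With median-of-ratios scaling that median was 0.00, and no member changed sign. In these sums fewer cells with a gene and less RNA per cell cannot be told apart.

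Single cells showed how common each gene was. Before thinning, Pou5f1 was found in 92.1% of kept cells at E6.75 and 82.3% at E7.5, Nanog in 73.5% and 40.8%, and Sox2 in 72.6% and 45.0%. These shares follow depth, so each cell was thinned to 2000 transcripts, which no kept cell was too shallow for. Then Pou5f1 was found in 51.4% and 40.8% of cells, Nanog in 16.02% and 8.39%, and Sox2 in 17.7% and 12.6%.

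Cells that should lack the genes gave the background. The 26 visceral endoderm marker cells of E6.75 (median depth 19678) were chosen by the 8 markers, so the presence of all 8 adds no support. Their thinned shares were 7.69% for Pou5f1, 11.5% for Nanog and 3.85% for Sox2, and unthinned levels 58.4, 13.8 and 10.8 CPM. Thinned Nanog shares in base (4.35%) and Mesp1 cells (5 of 125 cells) of E7.5, and Sox2 shares in E7.5 Mesp1 (1.60%) and Foxa2 cells (2.04%), were at or below those values. Those reference shares are 3 and 1 of 26 cells, and the levels before thinning went the other way: Nanog was 36.7 CPM in base and 36.2 in Mesp1 cells, and Sox2 19.4 CPM in Mesp1 and 58.0 in Foxa2 cells, all above the visceral endoderm values. No presence or absence was therefore read from these low shares. Exact 95% binomial intervals, which cover counting error only, ran from 15.8% to 37.1% for Nanog in E6.75 T cells (25.4%), from 8.52% to 16.3% in base cells (35 of 291 cells), and from 18.3% to 35.1% for Sox2 in E7.5 base cells (26.1%).

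Extraembryonic ectoderm marker cells held Sox2 without the other genes at a like level. Pooled, Sox2 was 400 CPM in 13 such cells of E6.75 (5 of 6 markers present, Esx1 at 0) and 258 CPM in 6 of E7.5, above the pooled 118 and 205 CPM of base cells. Pou5f1 was 31.4 and 21.9 CPM in them. These cells were chosen by other genes, and with few cells in few libraries no test was made.

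**Figure D4:**
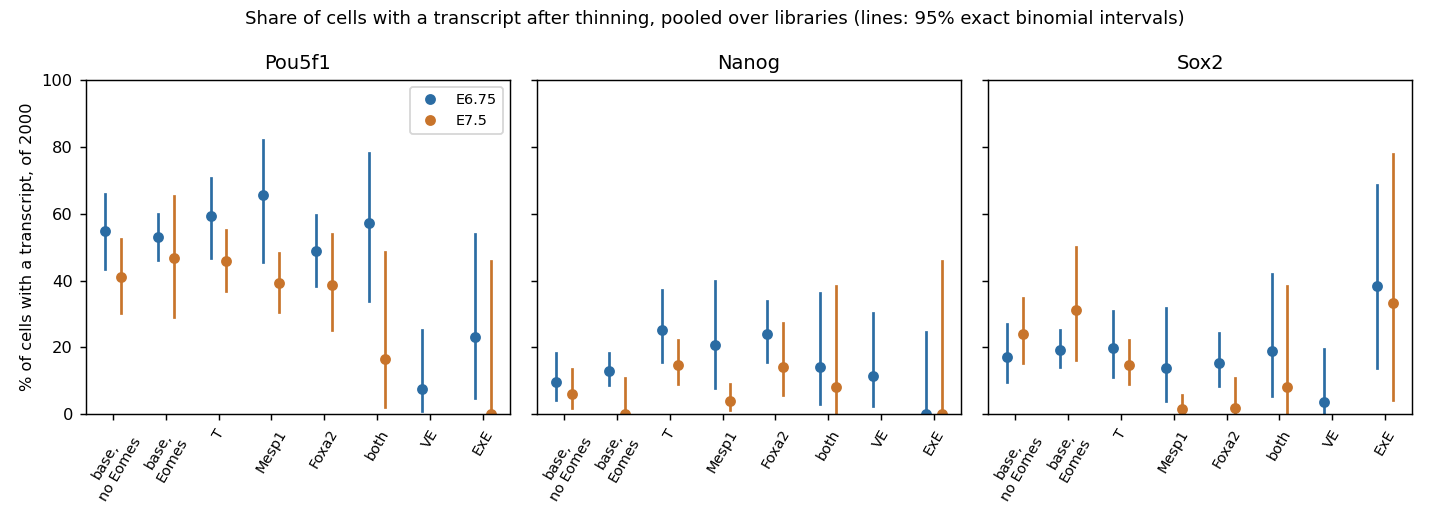
Percentage of cells with at least 1 transcript of Pou5f1, Nanog and Sox2 after thinning to 2000 (vertical axis) by class (horizontal axis; base cells are split by Eomes, "both" has Mesp1 and Foxa2, VE and ExE are visceral endoderm and extraembryonic ectoderm marker cells) at E6.75 (blue) and E7.5 (orange), pooled over libraries. Lines are exact 95% binomial intervals. At E7.5 Sox2 is found in 26.1% of base cells (both Eomes sets together) and 1.60% of Mesp1 cells, and in 38.5% of E6.75 ExE cells.

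Within classes the genes varied from cell to cell. In E6.75 base cells the middle 80% of cells ran from 134 to 690 CPM for Pou5f1 and from 0 to 224 CPM for Nanog, with medians of 399 and 38.8 CPM. In E6.75 T cells the Nanog median was 173 CPM and 1 cell held 39 transcripts of it. At E7.5 the median cell had 0 Nanog transcripts in base, T and Mesp1 cells and 0 Sox2 transcripts in T and Mesp1 cells.

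Whether the genes occurred in the same cells was tested against independence within each library. In thinned cells no pair passed. Pou5f1 with Nanog came closest, in 23 cells of E7.5 where 15.3 were expected (mean log2 ratio 0.35 ± 0.51, SD, n = 11; exact sign-flip permutation p = 0.0547, adjusted over 6 tests 0.328). Nanog with Sox2 was seen in 20 cells of E6.75 (15.2 expected) and 2 cells of E7.5 (4.28 expected), with adjusted exact permutation p of 0.906 and 0.469. Without thinning 4 of the 6 pairs passed, the largest for Pou5f1 with Nanog at E7.5 (168 cells, 146 expected, adjusted exact permutation p = 0.0117) and those shares follow depth. With all 3 counted, 14 of 543 thinned cells of E6.75 and 1 of 429 of E7.5 held all of them.

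Germ cell precursors, which keep Pou5f1, could also be present. Cells with transcripts of at least 2 of 5 germ cell markers (Dppa3, Nanos3, Prdm1, Prdm14, Tfap2c) numbered 17 at E6.75 and 3 at E7.5. Pooled, the 17 cells had 468 CPM of Pou5f1, 162 of Nanog and 127 of Sox2. They fell into the base, Mesp1, Foxa2 and both classes and the extraembryonic ectoderm marker cells, so they formed no class of their own, and none was in the E6.75 T class. Of the 3 cells at E7.5, with 596 CPM of Pou5f1 pooled, 2 were in the T class and 1 in the Mesp1 class.

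The other genes of the pluripotent epiblast did not move as 1 group. Of 16 formative and primed epiblast genes, all tested, Tdgf1, a Nodal co-receptor, rose in E6.75 T cells (0.77, SE 0.17, limma adjusted p = 0.00953) as Nanog did, and Utf1, a chromatin factor, fell (-0.82, SE 0.16, adjusted p = 0.00218). In Mesp1 cells of E6.75 2 of the 16 rose (Tdgf1 by 1.53, Sall4 by 0.38) and 7 fell, led by Dppa4 (-2.18), the POU factor gene Pou3f1 (-1.57) and Foxd3 (-1.52). At E7.5 Tdgf1 rose by 2.52 and 4 fell, led by Utf1 (-2.58), Pou3f1 (-2.33) and Otx2 (-1.62). The list's median was -0.55 and -0.71 in these comparisons, beside -0.03 and 0.01 over all genes tested, of which 3.2% and 6.37% were called.

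In Foxa2 cells 1 of 16 rose (Tdgf1, 0.81 and 2.45) and 3 fell (Pou3f1, Utf1 and Dnmt3b) at each stage, where 2.38% and 4.82% of all genes tested were called. The list's median was -0.29 and -0.27 there, beside -0.02 and -0.05 over all genes. From E6.75 to E7.5 in base cells, where 31.4% of all genes were called, 13 of 16 fell, led by Tdgf1 (-5.35), Dppa4 (-4.10) and Foxd3 (-3.87). The list's median there was -1.29, beside -0.14 over all genes tested. Of 12 naive pluripotency genes only 4 had enough counts for the class comparisons, and Tbx3, which also has mesodermal roles, was the 1 gene called in E6.75 Mesp1 cells (5.07, SE 0.87, limma adjusted p = 5.47e-05).

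Among neural ectoderm genes Sox3, the close relative of Sox2, was lower in Mesp1 than in base cells at both stages (-1.52 and -1.51, SE 0.39 and 0.37, limma adjusted p of 0.0113 and 0.00398) and in T cells of E6.75 (-0.96, SE 0.24, adjusted p = 0.0293). At E7.5 Irx3 (-1.28) and Six3 (-2.70) were lower in Mesp1 cells too, so that 3 of the 5 tested fell in a comparison that called 6.37% of all genes. In Foxa2 cells of E7.5 none of the 5 fell and Hesx1, an anterior gene, rose by 2.32 (SE 0.47, limma adjusted p = 0.00138).

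Over the 8 class means of log2(CPM + 1), the genes most like Pou5f1 among 6414 were Cnot11 (r = 0.987), Map1s (0.981) and BC051077 (0.978). Those most like Nanog were Herc1 (0.967), Rad21 (0.953) and Wapl (0.952), and those most like Sox2 were 2700097O09Rik (0.975), Mcf2 (0.967) and Jakmip2 (0.954). Mcf2 ran from 3.10 CPM in E7.5 Mesp1 cells to 36.9 CPM in E7.5 base cells. Others moved much less, with class means of 31.4 to 45.5 CPM for 2700097O09Rik, 38.1 to 61.2 for Herc1 and 245 to 314 for Rad21. Pearson r compares the shape of a pattern and not its size. Between the 3 genes themselves r was 0.747 for Pou5f1 and Nanog, 0.477 for Pou5f1 and Sox2 and 0.405 for Nanog and Sox2. These are descriptions over 8 points that share libraries, given with no test.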

How the data were processed

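Single-cell libraries of 6 E6.75 and 12 E7.5 samples of 96 cells each were used. Per the submitters' processing notes, reads were handled with bcl2fastq 2.17.1.14 and BWA 0.6.2-r126, and the genome build is not given in the sources used here. The deposited values are expected counts of transcripts, in which the authors had corrected the observed identifiers for collisions among 4096 possible ones. This was read from the values, which the formula for such collisions gives back from whole numbers, and sums were rounded. Of 192 barcode columns per file 96 were used, with 74 spike-in and 22 mitochondrial rows left out.

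The 3 genes and all lists were chosen with earlier results of these data known. Sums per library and class (at least 3 cells, in libraries of at least 10 kept cells) were tested with limma 3.58.1 in R 4.3.3 by voom, with TMM scaling written out in R (30% and 5% trimmed) and library as a block for class comparisons. The blocks are the libraries themselves, each of which gave cells of every class it enters with, so no replicate number was used to pair samples. Genes needed 10 transcripts at the median depth in as many sums as the smallest group, and 15 in all. P-values were adjusted by Benjamini-Hochberg over all genes tested, with 0.05 as threshold. A quasi-likelihood count test had been planned and was replaced by limma, since the unit of the numbered columns could not be checked as counts. The procedure was also run on simulated sums with known changes. Each sum was drawn on its own, with no level shared by the classes of a library, so that run does not check the block.

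Shares of Nanog and co-detection (0.5 added to observed and expected cells) were tested by exact sign-flip permutation over libraries with scipy. Marker cells had at least 3 transcripts and at least 30 (visceral endoderm) or 5 (extraembryonic ectoderm) per 10000 of the list. Named list genes are up to 3 called genes in each direction with the largest change; 1 gene of the formative and primed list that this rule takes is counted in the list's totals but not reported here. Like patterns are the 3 highest Pearson r among genes with a mean of at least 20 CPM. Promoters are from RefSeq, where 3 of 3 genes matched.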

Additional observations from a re-analysis of the deposited data

Results flagged for a closer look

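Of 33 groups of 4 to 10 libraries checked, 7 held a library far from the others by Dixon's test, where chance gives about 1 in 20.

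Sox2 in E6.75 replicate 2_12 was 181 CPM in base cells (55 cells), against 118 in the nearest library, 181 in base cells with Eomes (nearest 118) and 187 over all kept cells (nearest 120). These 3 values share cells. The same library had the highest Nanog of the E6.75 T class, 318 CPM in 8 cells, against 222 in the next library. Nanog in Foxa2 cells was low in E6.75 replicate 1_11, 57.5 CPM from 3 cells and 8 transcripts, against 133 in the next. Nanog in base cells was high in E7.5 replicate 10, 134 CPM from 10 cells and 17 transcripts, against 58.9 in the next. Sox2 in Foxa2 cells was high in E7.5 replicate 6, 361 CPM from 3 cells and 17 transcripts, against 156 in the next.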

How the results depend on the processing

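Of 550 values recomputed under other settings for 59 results, 485 kept their direction and their side of the threshold, 22 lost a call, 18 gained one and 25 changed sign. Of 935 with 1 library left out, 884 kept both, 25 lost a call, 10 gained one and 16 changed sign. Libraries of either stage were left out in turn, so for a comparison within 1 stage many of these removed none of its cells. The cause of a change was not tested. Sox2 in Mesp1 against base cells at E7.5 passed in 27 of 27 alternatives. Nanog and Pou5f1 over all kept cells, and Nanog in base cells, passed between stages in 25 of 25. The fit with no filter is among these, and it called 12666 genes over all kept cells and 11353 in base cells. The planned DESeq2 fit was not run. With cells thinned to 2000 transcripts Nanog and Sox2 were too low for the class tests. Sums of few transcripts, in E7.5 above all, limit what small differences can be seen, and sums of 3 cells enter the tests beside sums of 68.

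The stages were compared without pairing, since each library holds cells of a single stage. Within a stage the library is the block. With no replicate block, Pou5f1 in Mesp1 against base cells was -0.052 (adjusted p = 0.968) at E6.75 and its change between stages -0.28, Nanog in Foxa2 against base cells at E6.75 was 0.83 (0.0730), Nanog and Sox2 in Mesp1 against Foxa2 cells at E7.5 were -1.04 (0.1002) and -1.85 (0.0593), and Pou5f1 by Eomes was 0.13 at E6.75 and 0.53 (0.978) at E7.5. The fits with and without the block gave no other changed call or sign.

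Without precision weights, an alternative chosen after seeing the data, Nanog in T cells at E6.75 was 1.37 (adjusted p = 0.293), Pou5f1 in T cells at E7.5 0.074, Pou5f1 in Mesp1 cells at E6.75 -0.39 (1), Nanog in Foxa2 cells at E6.75 0.64 (1) and Sox2 in Foxa2 cells at E7.5 -0.93 (0.193), all against base cells. Sox2 by Eomes was 0.49 at E6.75 and Pou5f1 by Eomes 1.16 (0.132) at E7.5. With median-of-ratios scaling, also chosen then, Pou5f1 at E7.5 was -0.37 (0.0318) in Mesp1 against base and -0.024 in Mesp1 against Foxa2 cells.

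With cells thinned to 2000, Pou5f1 in T against base cells was -1.22 (adjusted p = 0.0252) at E6.75 and 0.063 at E7.5, in Mesp1 against base cells at E6.75 -0.74 (0.274), in Mesp1 against Foxa2 cells at E6.75 0.079, for Foxa2 against base between stages 0.42, by Eomes at E7.5 -0.42 and between stages -0.14, and between stages in base cells -0.91 (0.00141). These fits set the classes and the Eomes sets anew from the thinned counts. The Nanog share difference at E6.75 with thinned cells was 22.3 points (0.375). With cells of at least 10000 transcripts Sox2 in Mesp1 against base cells at E6.75 was -1.07 (0.0424), Pou5f1 in Foxa2 against base cells at E7.5 -0.52 (0.0480), Sox2 for Foxa2 against base between stages -1.64 (0.0243), and Sox2 in Mesp1 against Foxa2 cells -0.76 (0.215) at E7.5 and 0.12 between stages. Pou5f1 by Eomes at E7.5 was 0.69 (0.176) and Nanog by Eomes between stages -0.0092. Without the deepest cells Sox2 by Eomes at E6.75 was 0.023, Pou5f1 by Eomes at E7.5 0.67 (0.0812) and Pou5f1 between stages in base cells -0.66 (0.0431).

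With gates at 2 transcripts Pou5f1 in T cells at E7.5 was 0.12, in Mesp1 cells at E6.75 -0.56 (adjusted p = 0.101) and by Eomes at E7.5 2.04 (0.615), and Nanog for Foxa2 against base between stages -0.14. With marker cells kept in the classes Pou5f1 at E6.75 was -0.40 (0.0541) in Mesp1 and -0.32 (0.00706) in Foxa2 against base cells, Sox2 by Eomes at E6.75 0.14, Pou5f1 by Eomes at E7.5 0.75 (0.0509), and the log2 ratio for Pou5f1 with Sox2 at E7.5 -0.010. With E6.75 libraries whose titles begin with 2 alone, Pou5f1 in Mesp1 against base cells at E6.75 was -0.38 (0.0944), Nanog for Foxa2 against base between stages -0.046, Nanog and Sox2 by Eomes at E6.75 -0.30 and 0.20, Pou5f1 between stages in base cells -0.77 (0.0177), the log2 ratio for Nanog with Sox2 at E6.75 -0.15, and the Nanog share difference at E6.75 25.7 points (0.125, the smallest 4 libraries allow).

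With no filter on low counts Sox2 in Mesp1 against base cells was -1.04 (adjusted p = 0.0301) at E6.75 and -1.51 (0.0135) between stages, Sox2 by Eomes at E6.75 0.021, Pou5f1 by Eomes 0.81 (0.0832) at E7.5 and 0.90 (0.0230) between stages, Sox2 between stages over all kept cells -1.16 (0.0375) and Pou5f1 in base cells -0.52 (0.0286). Co-detection without thinning gave log2 ratios of 0.049 for Pou5f1 with Sox2 and 0.15 for Nanog with Sox2 at E6.75 (0.0469 each), and 0.22 for Pou5f1 with Nanog (0.0117), 0.11 for Pou5f1 with Sox2 (0.0469) and 0.28 for Nanog with Sox2 at E7.5. With 0.1 in place of 0.5 added to observed and expected cells it gave -0.21 for Nanog with Sox2 at E6.75 and -0.019 for Pou5f1 with Sox2 at E7.5.

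Leaving out each library in turn, calls or signs changed for these ranges. Against base cells: Pou5f1 in T cells at E7.5, -0.057 to 0.046 (replicates 12, 3, 7); Nanog in Mesp1 cells at E6.75, 0.064 to 1.21 (2_13); Pou5f1 in Mesp1 cells, -0.47 to -0.32 at E6.75 (1_10, 2_12, 2_13, 2_14), -0.46 to -0.22 at E7.5 (1) and -0.046 to 0.20 between stages (1). Pou5f1 in Foxa2 cells at E7.5 ran from -0.55 to -0.32 (1), Sox2 from -1.64 to -0.90 (7), and between stages Nanog from -0.056 to 0.24 (E6.75 1_10, E7.5 2) and Sox2 from -1.46 to -0.72 (10, adjusted p = 0.0375). Mesp1 against Foxa2 cells gave Nanog -0.70 to 0.38 at E6.75 (2_13) and -1.50 to -1.15 at E7.5 (2, 7), and Sox2 -1.57 to -0.81 at E7.5 (1, 12, 2, 3, 4, 6, 8, 9) and -0.71 to 0.057 between stages (3). By Eomes, Sox2 at E6.75 ran from -0.18 to 0.29 (1_10, 2_14) and Pou5f1 at E7.5 from 0.68 to 0.97 (1, 10, 3, 4). Between stages Sox2 over all kept cells ran from -1.38 to -0.84 (3, 4) and Pou5f1 in base cells from -0.67 to -0.40 (E6.75 1_10, E7.5 11, 12, 7). Log2 ratios ran from -0.0027 to 0.18 for Pou5f1 with Nanog (2_12) and -0.083 to 0.47 for Nanog with Sox2 at E6.75 (1_10, 2_14), and -0.033 to 0.20 for Pou5f1 with Sox2 at E7.5 (1, 11, 7). The Nanog share difference at E6.75 ran from 24.2 to 32.1 points, each at 0.0625.

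Counts of genes called moved more than the members did. With no filter 6420 genes were called in T against base cells at E6.75 (56 with it), 6942 in Mesp1 against base cells (270), 9943 in Mesp1 against Foxa2 cells at E7.5 (820), 12666 between stages over all kept cells (4287) and 11353 in base cells (1979). The other settings gave 7 to 257, 69 to 526, 17 to 1135, 808 to 4287 and 516 to 1984 for these. They gave 6 to 64 for T against base cells at E7.5 (26 in the report), 199 to 614 for Mesp1 against base at E7.5 (537), 24 to 642 and 147 to 450 for Foxa2 against base at E6.75 and E7.5 (201 and 406), 2 to 217 for Mesp1 against Foxa2 at E6.75 (101) and 1 to 50 by Eomes at E7.5 (46).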

Other observations

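Pou5f1 in the E6.75 libraries also ordered by the first number of the sample titles, whose meaning is not given in the sources used here. Over all kept cells it was 277 and 326 CPM in the replicates that begin with 1 (1_10 and 1_11) and 364 to 512 CPM in the replicates that begin with 2. Mesp1 cells of E6.75 were found in replicates 2_13, 2_14 and 2_9 and in no other library.

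In the 21 E6.75 cells with both Mesp1 and Foxa2, replicates 2_13 and 2_14 had 160 and 182 CPM of Nanog from 13 and 6 cells. The first lies within the range of Foxa2 cells and the second within that of T cells. Sox2 was 101 and 89.2 CPM and Pou5f1 557 and 443 CPM in them. These values were not tested.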
